A study of Homo sapiens with 2 samples.

Results

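Long intergenic noncoding genes named LINC followed by digits, and expressed in Huh7 cells, were examined for their response to knockdown of BRF2. The genes were chosen on their reads: of 61541 genes in the deposited table, 2155 have such a name, and the 110 with at least 100 reads over both libraries together were kept. The cells are of Huh7, an established line from a human liver cancer (hepatocellular carcinoma). One library of total RNA came from cells given a control siRNA (Huh7-NC) and 1 from cells given an siRNA against BRF2 (Huh7-si), with no further treatment or time in the labels, so each condition is 1 library of 1 cell line and no difference has a replicate check. BRF2 is a subunit of an initiation factor for RNA polymerase III, the polymerase that makes U6 and other small RNAs, whereas most long noncoding RNAs are made by RNA polymerase II.

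Long intergenic noncoding RNAs are transcripts from between protein-coding genes, usually capped, spliced and polyadenylated like mRNAs but without a long reading frame. Many are expressed at low levels and in few tissues, many contain sequence from transposable elements, and most have no known function. Some act on the transcription of the gene beside them, some act elsewhere in the nucleus or cytoplasm, and a few loci turn out to encode small proteins. The symbol LINC with a number is given to such genes when no function or position gives a better name, so the members form a naming class and not a pathway.

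Reads on genes summed to 22852648 for Huh7-NC and 22089016 for Huh7-si. The estimated counts are partly fractional, as when reads that fit several genes are divided among them. CPM corrects a gene's reads for library size and TPM also for transcript length, so levels of different genes are compared here by TPM. A fold change is the ratio of CPM in Huh7-si to that in Huh7-NC. A gene was called higher or lower where this fold was at least 2 and a two-sided exact binomial test on its reads gave an unadjusted p under 0.05. The test compares these 2 libraries, not the conditions, and intervals are 95% Clopper-Pearson intervals that cover counting error only. Where a pair of values is given, Huh7-NC comes first and Huh7-si second, and a range in parentheses is the interval. BRF2 itself had 1281 and 364 reads, with a log2 fold change of -1.77 (-1.94 to -1.60). All 10 hepatocyte markers examined, ALB and AFP among them, stood at 76.6 to 3957 TPM in Huh7-NC and 107 to 4077 TPM in Huh7-si. Among these APOB was called higher, with a log2 fold change of 1.04, and APOA1 had the lowest, -0.83. Of the 10 blood, endothelial and stromal markers, CD3E and DCN had no read in either library, while LYZ, a lysozyme gene, was at 438 and 433 TPM. COL1A1, a collagen gene, had 76 and 229 reads and was called higher, PDGFRB had 158 and 218, and PECAM1 had 60 and 63. Of the 3 cholangiocyte markers, KRT19 was at 178 and 176 TPM, SOX9 was at 49.9 and 69.5 TPM, and KRT7 had 0 and 3 reads.

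Up-regulation was the common direction among the LINC genes. Of the 110, 20 (18.2%) were called higher in Huh7-si, where 7.45% of the 12978 genes with at least 100 reads were. None of the 110 was called lower by the exact binomial test with this fold, where 0.393% of those genes were. By the unadjusted p alone, without the fold, 53 were higher and 7 lower. With DESeq2's median-of-ratios scaling and the fold 0 were lower, beside 1.08% of all 12978 genes. All genes leaned upward too, with a log2 fold change above 0 in 7992 of the 12978, beside 88 of the 110. The interval lay wholly above 0 for 52 LINC genes, wholly below 0 for 7, and included 0 for the other 51. The counts by p alone and by interval were made for the LINC genes only. Without a share of all genes beside them, they do not show whether LINC genes differ from other genes. The log2 fold changes ran from -0.79 to 2.31 with a median of 0.31, against 0.14 over all 12978 genes. The trimmed mean of M values (TMM) of edgeR is a scaling that assumes most genes do not change. It put the median log2 fold change at -0.088 over all 12978 genes and at 0.082 over the LINC genes. After TMM, 11 of the 110 LINC genes were called higher, beside 559 (4.31%) of the 12978, and 1 was called lower, beside 161 (1.24%). With an assumed coefficient of variation of 0.4 between replicates, 2 (1.82%) were called higher beside 1.19%. In a bulk library, more cells with a transcript and more RNA per cell cannot be told apart.

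**Figure D1:**
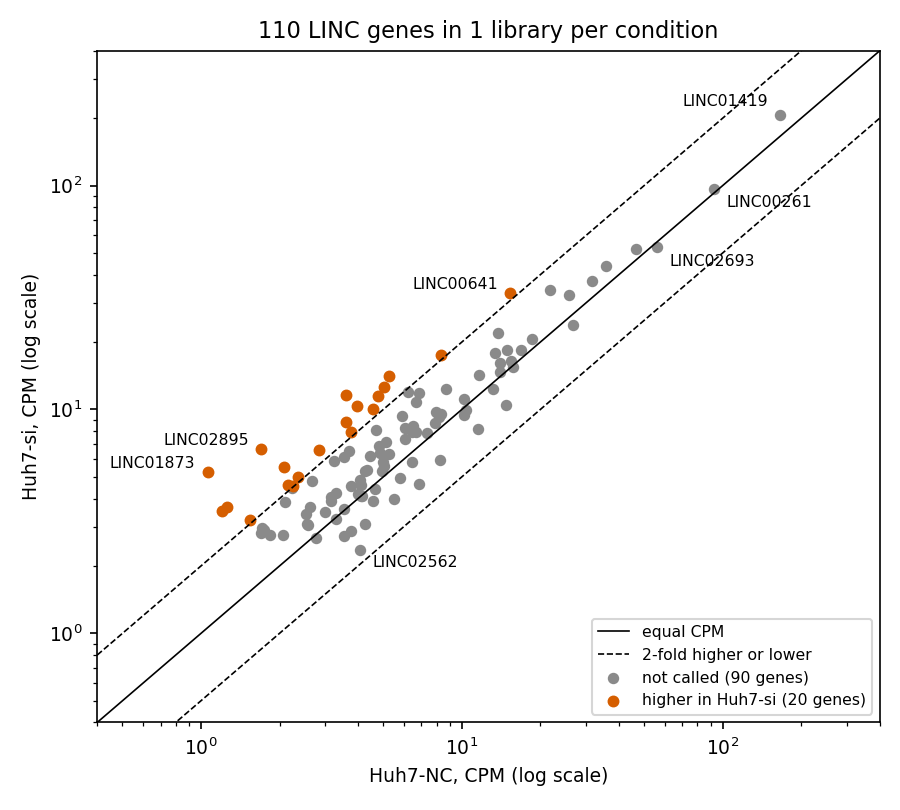
CPM of the 110 LINC genes in Huh7-NC (horizontal, log scale) and Huh7-si (vertical, log scale), 1 library each; the solid line marks equal CPM and the dashed lines 2-fold differences. The 20 genes called higher lie above the upper dashed line, most of them at low CPM, and LINC01419 is the highest point at 166 and 207 CPM.

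The LINC genes as a group held a small share of the RNA. They took 0.110% of reads in Huh7-NC (95% interval 0.108 to 0.111) and 0.137% in Huh7-si (0.135 to 0.138). LINC01419 alone gave 15.2% of their reads over both libraries, and the 10 genes with most reads gave 46.0%. The rise of the summed share did not rest on LINC01419, since without it the shares were 0.0931% and 0.116%. Mean TPM over both libraries ran from 0.75 to 94.1 with a median of 4.79, and 58 of the 110 genes stood under 5 TPM. In all, 598 LINC genes had a read in Huh7-NC and 700 in Huh7-si, where the genes with a read in the whole table numbered 22683 and 24735.

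LINC genes on either side of the minimum of 100 reads had like values. Just inside, LINC01049 had 38.7 and 61.9 reads, LINC01547 had 42 and 61, and LINC02335 had 39 and 65. Just outside, LINC00504 had 38.3 and 61.2, LINC01004 had 41 and 58, and LINC02055 had 41.2 and 55. All 6 had log2 fold changes above 0 and under 1.

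Of the 110 genes, 109 were found by Ensembl identifier in GENCODE release 29 (GRCh38), which types 87 of them as lincRNA. The exception was LINC02348. The others were typed as processed transcripts, pseudogenes, antisense or bidirectional-promoter RNAs, and LINC02693 carries a protein-coding type there. The genes lay on 22 chromosomes, 17 of them on chromosome 1 and 10 on chromosome 4. Gene lengths in the deposited table ran from 504 to 9678 bases.

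Of the 10 most abundant LINC genes by TPM, 1 was called. LINC01419 (ENSG00000253898), studied as an RNA raised in hepatocellular carcinoma, had 3804 and 4576 reads, or 95.8 and 92.3 TPM. Its log2 fold change was 0.32 by CPM (0.25 to 0.38) and -0.05 by TPM, so its direction depends on the unit. LINC01980 had 319 and 323 reads, 57.2 and 67.8 TPM, with a log2 fold change of 0.07 (-0.16 to 0.30). LINC00261, which is transcribed beside the endoderm factor gene FOXA2 and is active in endoderm and liver, had 2123 and 2140 reads, 47.4 and 56.2 TPM. The interval of its log2 fold change was -0.03 to 0.15, narrow enough to leave out even a 1.5-fold difference in CPM between these libraries. LINC00963, first described in prostate cancer, had 1059 and 1151 reads (log2 fold change 0.17, 0.05 to 0.29).

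The one called was LINC01002, which is described with its copies. LINC01608 had 818 and 968 reads, LINC00623 had 339 and 405, LINC00467 had 233 and 245, and LINC01234 had 424 and 454. The log2 fold changes of these 4 were 0.12 to 0.31. LINC02432 had 609 and 528 reads, with a log2 fold change of -0.16 (-0.33 to 0.01). After TMM scaling, LINC01980, LINC00261, LINC00963, LINC00467 and LINC01234 had log2 fold changes below 0, at -0.16 to -0.06. By level, 8 of the 55 genes with the higher TPM were called higher and 12 of the 55 with the lower TPM.

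The promoters of LINC00261 and LINC01873 are shown as those of an abundant gene whose interval included 0 and of the gene with the largest rise. RefSeq promoter windows (GRCh38.p14), from 250 bases before the start to 50 after it, were available for 67 of the 110 genes. In each, capitals mark the one match to TATAAA, the core of the TATA box, read on both strands, so that TTTATA is the same motif on the other strand.
LINC00261, chr20:22578593-22578892, minus strand: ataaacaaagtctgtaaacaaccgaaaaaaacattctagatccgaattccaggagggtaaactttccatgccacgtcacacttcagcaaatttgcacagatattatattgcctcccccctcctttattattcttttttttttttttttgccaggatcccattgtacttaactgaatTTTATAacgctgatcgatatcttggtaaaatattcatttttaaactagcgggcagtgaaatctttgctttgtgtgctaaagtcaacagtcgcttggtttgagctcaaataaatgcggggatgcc
LINC01873, chr2:66383056-66383355, plus strand: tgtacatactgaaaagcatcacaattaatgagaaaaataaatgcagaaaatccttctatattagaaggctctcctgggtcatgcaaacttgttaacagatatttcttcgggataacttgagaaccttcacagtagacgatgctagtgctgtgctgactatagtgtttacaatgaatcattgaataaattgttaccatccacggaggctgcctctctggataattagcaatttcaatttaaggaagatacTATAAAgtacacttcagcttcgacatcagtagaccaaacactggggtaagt
The match covered bases 177 to 182 of the LINC00261 window and bases 250 to 255 of the LINC01873 window, where the gene starts after base 250. TATAAA was in 5 of the 67 LINC windows (7.46%) and in 3264 of 27305 RefSeq promoter windows, and CCAAT, also read on both strands, was in 32 (47.8%) and in 35.7%. Both windows were 37% G or C, against medians of 56.7% over the 67 genes, 47.7% over the 13 of them called higher and 58.3% over all windows. The median number of CpG dinucleotides in the window was 11 over the 67 genes, 4 over the 13 called higher and 14 over all windows, which was not tested. Across the 67 genes this number and the log2 fold change had a Spearman rho of 0.05, a description of genes within 1 pair of libraries.

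LINC01873 and LINC02895 rose most. LINC01873 (ENSG00000232164), 41002 bases from the homeobox gene MEIS1 on chromosome 2, had 24.2 and 116 reads, with a log2 fold change of 2.31 (1.68 to 3.02). LINC02895 had 38.9 and 147 reads (1.97, 1.45 to 2.51). LINC00174 had 81.9 and 255 reads (1.69, 1.32 to 2.06). It overlaps the tyrosylprotein sulfotransferase gene TPST1 on the opposite strand without shared exon bases, and TPST1 had 981 and 1060 reads. On the same strand it shares 474 exon bases with the pseudogene SKP1P1, at 4.15 and 19.2 reads, and 560 with AC008267.2, at 1 and 0. LINC00506 had 27.6 and 78.0 reads, and LINC02503 had 28.7 and 81.1. Both had a log2 fold change of 1.55, with intervals from 0.89 to 2.21 and from 0.90 to 2.20.

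LINC02604, a gene of 1 exon on chromosome 7, had 120 and 310 reads (1.41, 1.11 to 1.73). LINC01001 had 47.7 and 122 reads (1.41, 0.90 to 1.91), LINC00265 had 90.9 and 229 (1.38, 1.02 to 1.75), and LINC01002 had 114 and 278 (1.33, 1.02 to 1.66). LINC02405 had 82.0 and 195 (1.30, 0.92 to 1.69). Only 6 of the 20 called genes had an interval wholly above a log2 fold change of 1: LINC01873, LINC02895, LINC00174, LINC02604, LINC00265 and LINC01002. The other 10 called genes, with log2 fold changes of 1.01 to 1.27, were LINC01348, LINC02035, LINC01488, LINC00641, LINC01089, LINC01559, LINC02428, LINC02365, LINC00923 and LINC01611. Most reads among these were those of LINC00641, at 351 and 732.

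**Figure D2:**
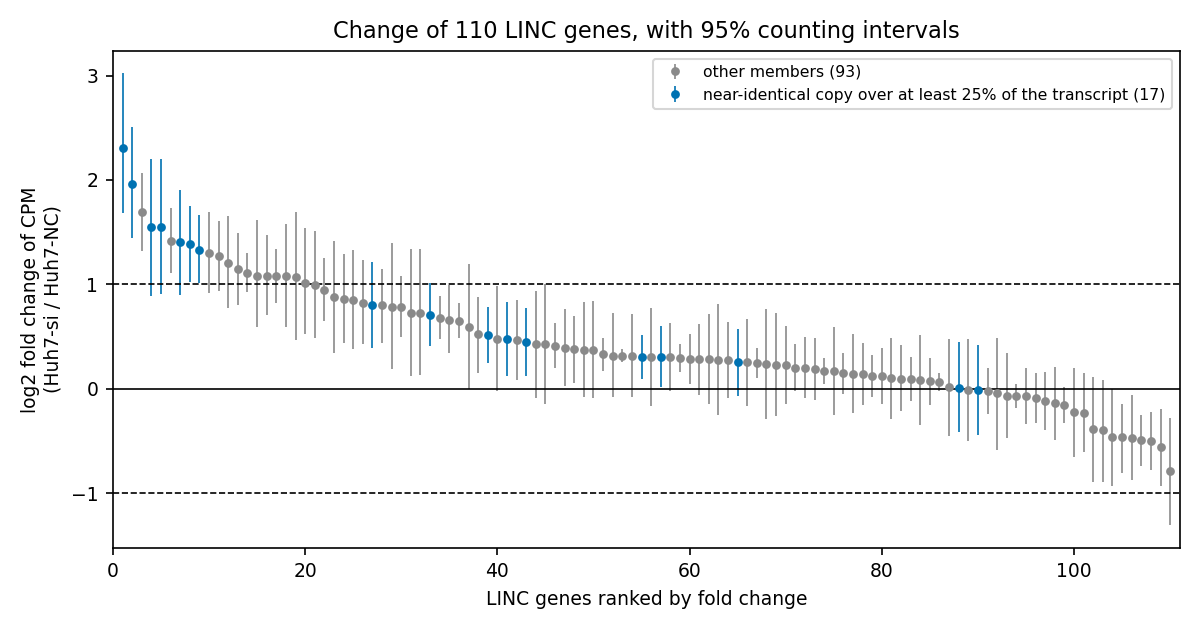
Log2 fold change of CPM (Huh7-si over Huh7-NC, vertical) of the 110 LINC genes in order of rank (horizontal), with 95% Clopper-Pearson intervals from the reads of 1 library per condition; dashed lines mark 2-fold. Blue points are the 17 genes whose transcript has near-identical copies over at least 25% of its length, 7 of which are among the 9 genes with the largest rise.

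No LINC gene was lower by 2-fold in CPM. LINC02562, with 93.1 and 52.1 reads, had the lowest log2 fold change, -0.79 (-1.31 to -0.29), and it was called lower after TMM scaling and at a fold threshold of 1.5. LINC02348 had 157 and 103 reads (-0.56), LINC01882 had 263 and 180 (-0.50), LINC02381 had 337 and 231 (-0.50), LINC02609 had 126 and 88.0 (-0.47), LINC01551 had 188 and 131 (-0.47) and LINC00540 had 97 and 68 (-0.46). These 7 are the genes whose interval lay wholly below 0, and they were named after their values were seen.

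Several of the largest rises belong to genes whose sequence occurs elsewhere in the transcriptome. The longest transcript of each gene was compared with all GENCODE 29 transcripts by BLAST, and a copy was an alignment of at least 200 bases at 95% identity or more to a transcript of another locus. Copies over at least 25% of the transcript were found for 17 LINC genes, of which 7 (41.2%) were called higher, with a median log2 fold change of 0.71. Of the 85 LINC genes with no copy, 13 (15.3%) were called higher, with a median of 0.28. The 7 LINC genes with copies under 25% had 0 called higher and a median of 0.32. The same division of all genes gave 14.4% of 932 and 6.74% of 11266 called higher. It gave 7.48% of 642 and 5.94% of 10564 in protein-coding genes, and 29.9% of 67 and 20.4% of 333 in other long noncoding genes. The division was made after the values were seen and has no test. All of the genes with copies had fractional reads in the table, and the part of such division between loci in their change was not tested.

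The 7 called genes with copies were LINC01873, LINC02895, LINC00506, LINC02503, LINC01001, LINC00265 and LINC01002. Some match each other or another of the 110: LINC01873 matches LINC00649, LINC00506 matches LINC02503, and LINC01001 matches LINC01002. LINC02895 matches HELLPAR, a very long intergenic RNA. One pair shows how alike such loci are. LINC00265 (chr7:39792348-39792467, plus strand) matches the pseudogene GTF2IP13 on the same chromosome (chr7:45810816-45810935, plus strand). Both windows of 120 bases were read from GRCh38 as 1 stretch with no gap, and capitals mark the 4 bases at which they differ.
LINC00265: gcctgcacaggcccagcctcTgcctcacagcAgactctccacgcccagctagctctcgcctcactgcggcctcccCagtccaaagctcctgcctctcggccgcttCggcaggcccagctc
GTF2IP13: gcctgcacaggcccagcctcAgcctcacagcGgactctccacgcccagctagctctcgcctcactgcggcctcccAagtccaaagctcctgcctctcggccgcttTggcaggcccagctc

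The loci named here as matches had log2 fold changes above 0 as well. Only some matching loci are given here, and each of the 7 transcripts matches several. Where reads are divided among matching loci, the changes of those loci are not independent. LINC00649 had 149 and 187 reads (log2 fold change 0.38), and HELLPAR had 805 and 1390 (0.84). GTF2IP13 had 122 and 320 reads, a log2 fold change of 1.44 beside the 1.38 of LINC00265. Among the other loci with the longest match, RASEF (for LINC01873) had a log2 fold change of 0.92, PIGN (for LINC00506) 0.75, NMNAT3 (for LINC02503) 1.05 and FAM157A (for LINC01002) 0.83. The copy shares of the 7 transcripts ran from 43.6% of LINC00506 to 100% of LINC01002. LINC02802, with copies over its whole longest transcript, was not called, with 93.5 and 91.0 reads (0.01).

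Of the 64 LINC genes with neither a copy nor exon bases shared with another gene with reads, 11 (17.2%) were called higher and the median log2 fold change was 0.29. LINC genes whose body overlaps another gene with reads were called in 3 of 38 cases (7.89%). Those without such an overlap were called in 17 of 71 (23.9%). Over all 12978 genes with at least 100 reads, 7.45% were called higher. The division by overlap was made for the LINC genes alone and was not tested. The 3 called genes with an overlap were LINC00174, LINC01089 and LINC01002. LINC01089 had 49.5 and 101 reads. It shares 1724 exon bases with RHOF on the same strand, which had 1224 and 871 reads. On the opposite strand it shares 2011 with AC084018.2, at 12.6 and 29.8 reads, and 210 with AC084018.1, at 2 and 10. How far the reads of these genes can be told apart was not tested.

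By CPM the LINC median lay above that of protein-coding genes, as did the medians of the other long noncoding classes. With at least 100 reads, antisense genes (named with -AS, 172 genes) had a median log2 fold change of 0.45 and 18.0% called higher. The 426 other long noncoding genes had a median of 0.38 and 22.8% called higher, and the 19 SNHG genes, hosts of small nucleolar RNAs, had 0.24 and 15.8%. The 11837 protein-coding genes had a median of 0.11 and 6.02% called higher. By TPM the medians were 0.53 for LINC genes, 0.53 for antisense genes, 0.50 for other long noncoding genes, 0.31 for protein-coding genes and 0.27 for SNHG genes. None of these differences between classes was tested.

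**Figure D3:**
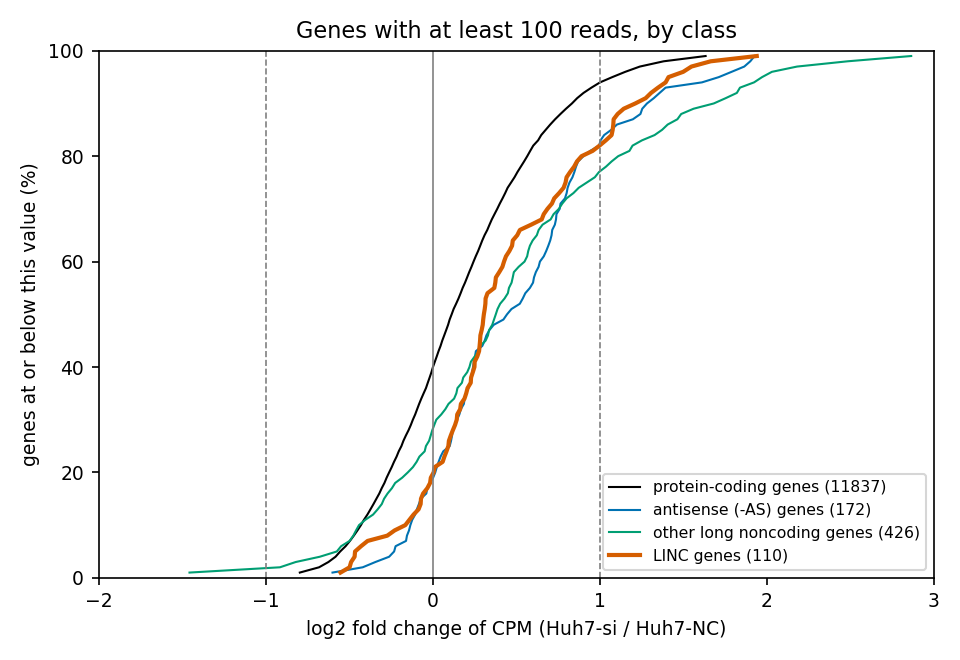
Percentage of genes (vertical) at or below each log2 fold change of CPM (horizontal), for genes with at least 100 reads in 4 classes. The LINC curve lies to the right of the protein-coding curve, with medians of 0.31 and 0.11, and the curve of the other long noncoding genes is wider than the LINC curve in both tails.

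Longer genes had higher fold changes over all genes, and the relation was weaker in noncoding classes. Length and log2 fold change had a Spearman rho of 0.50 over the 12978 genes and 0.04 over the 110, both across genes of 1 pair of libraries. It was 0.54 in protein-coding genes, 0.32 in antisense genes, 0.20 in other long noncoding genes and -0.24 in the 19 SNHG genes. In 20 bins of length, the median over all genes went from -0.34 in the shortest to 0.68 in the longest. Of the 37 shortest LINC genes 7 were called higher, as were 7 of the 37 longest. Shares of all genes called were not taken by length. Short called genes included LINC01611 (504 bases, 51.4 and 100 reads) and LINC02365 (802 bases, 54 and 110 reads). Set against genes of like length, the LINC median was 0.33 and 79 of the 110 stood above their bin's median. Medians of the other classes were 0.29 for antisense, 0.28 for other long noncoding, 0.23 for SNHG and -0.019 for protein-coding genes. A fold of at least 2 over the bin's median and a p under 0.05 were met by 18 LINC genes (16.4%), beside 4.63% of all genes. Of the 20 called by CPM, 15 were among these 18. GC content and log2 fold change had a rho of 0.17 over 109 LINC genes and -0.16 over 12881 genes.

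**Figure D4:**
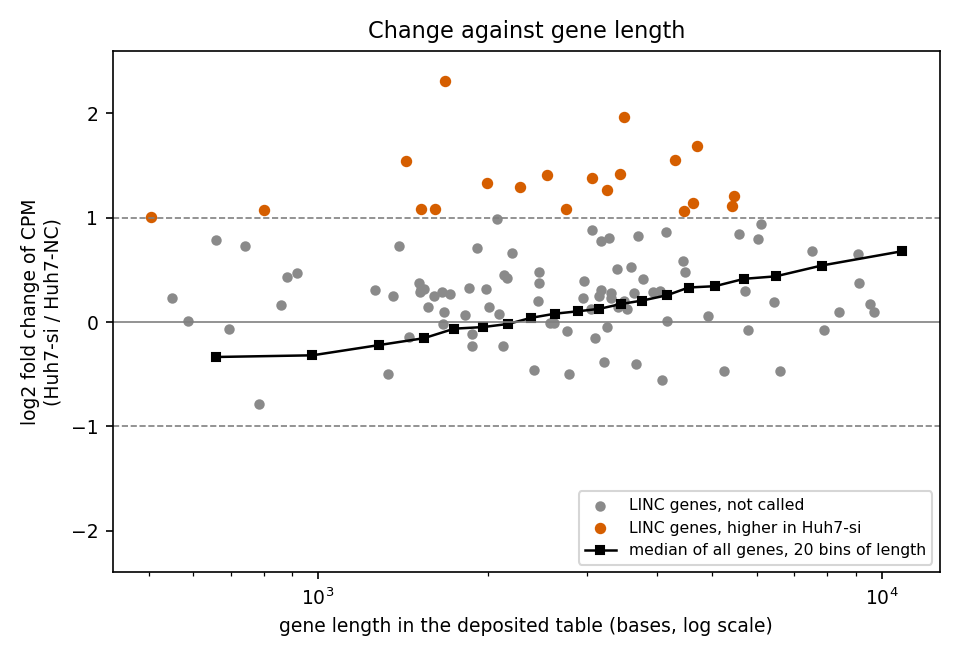
Log2 fold change of CPM (Huh7-si over Huh7-NC, vertical) of the 110 LINC genes against gene length (horizontal, log scale), with the median of all genes with at least 100 reads in 20 bins of length as black squares. The all-gene median climbs from -0.34 to 0.68, while LINC genes called higher occur from 504 to 5476 bases.

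Neighbours of the LINC genes were called about as often as protein-coding genes in general. Of the 110, 67 had a nearest protein-coding gene with at least 100 reads, and rho between the log2 fold changes of gene and neighbour was -0.02 over these pairs, of which 4 neighbours (5.97%) were called higher, beside 6.02% of the 11837 protein-coding genes at that minimum. Of the 20 called LINC genes, 14 had such a neighbour, and the neighbours had a median log2 fold change of 0.08. One of the 14 neighbours was called higher and 0 lower. The one was ARRDC4, an arrestin-family gene, with 40 and 88 reads, beside LINC00923 with 35.2 and 71.1. FOXA2, 2363 bases from LINC00261, had 1412 and 1707 reads (log2 fold change 0.32). HNRNPC, which encodes a protein that binds nascent RNA and lies 2236 bases from LINC00641, had 22416 and 16008 reads (-0.44) while LINC00641 rose by 1.11 in CPM. The log2 fold change of LINC00641 was 0.88 by TPM and 0.70 against genes of like length, both under 2-fold.

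Neighbours with at least 100 reads beside other genes with large rises were not called. SPRED1, an inhibitor of Ras signalling beside LINC02895, had 296 and 314 reads, and CHMP2B, a component of membrane-remodelling complexes beside LINC00506, had 655 and 678. TMEM248, beside LINC02604, had 2293 and 2298 reads. RALA, a small GTPase gene beside LINC00265, had 1488 and 1387. MEIS1, beside LINC01873, had 149 and 223 reads, with a log2 fold change of 0.63.

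**Figure D5:**
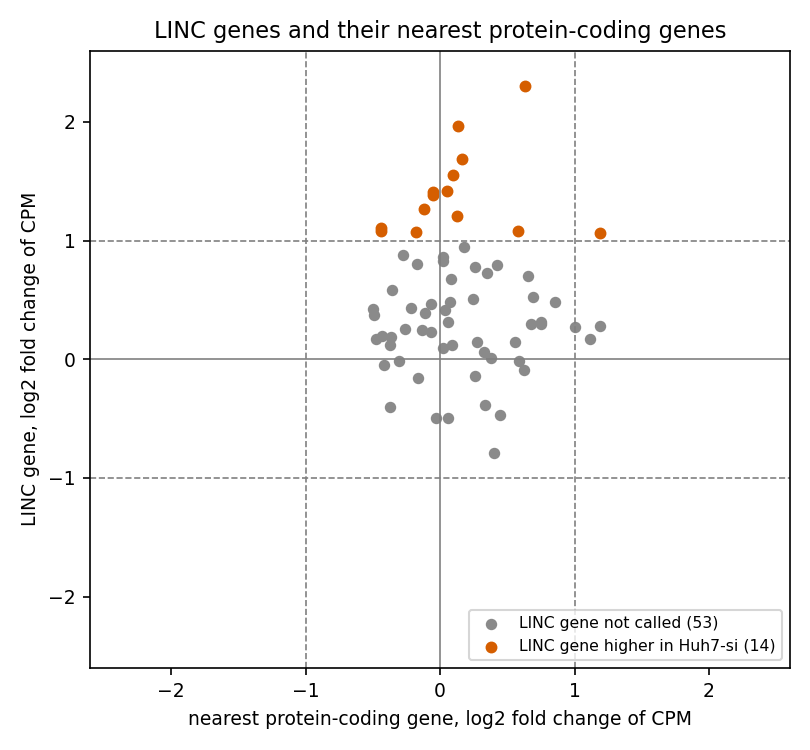
Log2 fold change of CPM (Huh7-si over Huh7-NC) of LINC genes (vertical) against that of their nearest protein-coding gene (horizontal), for the 67 pairs whose neighbour has at least 100 reads; dashed lines mark 2-fold. The 14 called LINC genes spread over neighbours from -0.44 to 1.19, and 1 of those neighbours lies beyond 2-fold.

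Head-to-head pairs, in which the LINC gene and a protein-coding gene start on opposite strands within 2000 bases, numbered 5. LINC00649 had 149 and 187 reads, and ATP5PO, a subunit of the mitochondrial ATP synthase, had 3595 and 2476 (-0.49). LINC01134 had 48 and 85.3 reads (0.88), and C1orf174 had 917 and 733 (-0.27). LINC01547 had 42 and 61 reads, and SLX9 had 1065 and 805. In these 3 pairs the LINC gene lay above 0 and its partner below 0, none of them called. LINC00205 had 314 and 486 reads beside 1399 and 1427 of POFUT2, a fucosyltransferase gene, and LINC01006 had 81 and 79.0 beside 227 and 285 of RNF32.

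Lists of LINC genes written with earlier results of these data known were also followed. Of 12 genes listed as enriched in liver, 4 were among the 110 and 2 of these 4 were called higher. The share called higher was 18.2% over all 110 LINC genes and 7.45% over all 12978 genes, and counts in so short a list were not tested. LINC01348 had 109 and 254 reads (1.27, 0.94 to 1.61) and LINC02428 had 190 and 388 (1.08, 0.83 to 1.34, but 0.85 after TMM scaling and 0.76 by TPM), whereas LINC01146 had 51 and 98 (0.99) and LINC00261 was as above. The other 8 had at most 36 reads in a library, and LINC01093 had 5 and 2.

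Of 42 genes listed from cancer studies, 34 were in the table and 19 among the 110. Called higher were 2 of these 19, beside the 18.2% of all LINC genes and 7.45% of all genes, a difference that was not tested. The 2 called higher were LINC01089, at 49.5 and 101 reads (1.08), and LINC01559, at 86 and 176 (1.08), and both passed 2-fold by CPM but not after TMM scaling. The list's median was 0.32 and its values ran from -0.50 for LINC02381 to 1.08. LINC00667 had 499 and 757 reads (0.65). Of 8 genes listed for encoding small proteins, LINC00467 and LINC01128 were among the 110, the latter with 354 and 365 reads (0.09), and neither was called.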

How the data were processed

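The authors deposited 1 table of 61541 genes by Ensembl identifier. Its estimated counts per gene and library were left by the authors without any scaling, and its TPM values were computed by the authors. The submitters' processing notes name Bowtie2 2.0.6, TopHat2 2.0.12 and GRCh37 without saying what each was used for. The counting tool, annotation and strandedness are not given in the sources used here. Reads of overlapping genes on opposite strands may therefore not be told apart, and which BRF2 siRNA was used is not in the labels. Columns with the authors' own fold changes, p-values and calls were not used.

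Estimated counts were used as deposited for CPM and rounded for the two-sided exact binomial test (SciPy 1.17.1). Calls needed a 2-fold ratio of CPM with p under 0.05, unadjusted. Genes with at least 100 reads over both libraries formed the comparison set. A count of 0 allows up to 3 reads, or 0.131 and 0.136 CPM in the control and knockdown library. Positions, types, exons and neighbours came from GENCODE release 29 (GRCh38), which holds 94.8% of the identifiers, because the deposited table has no coordinates, and none was converted. Copies were sought with BLAST 2.17.0. RefSeq promoters are of GRCh38.p14. Scalings came from edgeR 4.0.16 and DESeq2 1.42.0 in R 4.3.3. The other tools were Python 3.11.15, NumPy 2.4.6, pandas 2.3.3 and matplotlib 3.10.9. The tests were tried on simulated reads.

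The LINC genes, the gene lists and the tests were chosen with earlier results of these data known. Genes were named where they were among the 10 with the highest TPM, the 10 called with the largest rise or fall, the 3 on either side of the minimum, members of the lists that were called or among the 5 highest of a list, or the nearest protein-coding neighbours of the first 2 kinds. Other genes in the text were named after their values were seen. Alternatives were the scaling, the TPM columns, the fold, the test, the minimum of reads, a pseudocount of 1 CPM, the length correction in 20 bins and the omission of overlapping genes. Added after seeing the data were the omission of genes with copies and of those with copies or shared exon bases. Some neighbouring genes and matching sequence windows are not reported here.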

Additional observations from a re-analysis of the deposited data

How the results depend on the processing

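The 20 LINC genes called higher became 11 with edgeR's TMM scaling, 11 with DESeq2's median of ratios and 12 by upper-quartile scaling, which shifted every log2 fold change by -0.22, -0.21 and -0.19. Those called were among the 20. They became 12 with a pseudocount of 1 CPM, 2 by an exact test in edgeR that assumes a coefficient of variation of 0.4, 37 at a fold of 1.5, 34 at a minimum of 50 reads, 11 at 200 reads and 99 with no minimum. Beside these, the share of LINC genes and of all genes called was 10.9% and 5.57% with the pseudocount, 33.6% and 20.8% at a fold of 1.5, 19.9% and 9.19% at 50 reads, 15.3% and 5.94% at 200 reads, and 12.6% and 10.3% with no minimum. The 2 shares were 10% and 4.31% with TMM, 10% and 4.55% with the median of ratios, and 10.9% and 4.79% by upper-quartile scaling. By TPM, 25 LINC genes (22.7%) were called higher, beside 13.1% of all genes. Leaving out genes with copies, chosen after seeing the data, left 13, and leaving out those with shared exon bases too left 11. Fewer genes were examined in these last settings. The 0 called lower became 1 with TMM, 1 at a fold of 1.5 and 4 with no minimum. The median log2 fold change of 0.31 became 0.082 with TMM, 0.099 with the median of ratios, 0.12 by upper-quartile scaling, 0.53 by TPM and 0.43 with no minimum. TMM, median-of-ratios and upper-quartile scaling each shift all genes alike, so the LINC median stays 0.17 above that of all genes by construction. Benjamini-Hochberg adjustment, at least 10 reads in each library and the omission of overlapping genes kept the count within 1.5 times of 20.

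Some named genes that were not called changed sign. Under TMM, median-of-ratios and upper-quartile scaling, the log2 fold change was -0.16, -0.14 and -0.12 for LINC01980, -0.16, -0.15 and -0.13 for LINC00261, -0.056, -0.038 and -0.018 for LINC00963, -0.10, -0.087 and -0.066 for LINC00467, -0.077, -0.059 and -0.039 for LINC01234, and -0.13, -0.11 and -0.093 for LINC01128. Against genes of like length it was -0.28 for LINC00261, -0.51 for LINC00963, -0.053 for LINC00467, -0.026 for LINC01234, -0.45 for LINC01128 and -0.027 for LINC00667. By TPM it was -0.054 for LINC01419 and 0.12 for LINC02432. The scalings' shift is part of their construction; for TPM and length the cause was not tested.

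No paired analysis was possible because each condition has 1 library, and no library could be left out. Counting intervals cover no spread between cultures. Depth limits the smaller genes: the interval of LINC01049, just above the minimum of 100 reads, ran from 0.12 to 1.33, and that of LINC01419 from 0.25 to 0.38.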

Other observations

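LINC genes under the minimum were not part of the comparisons above. Of the 2155 LINC genes, 1367 had no read in either library and 678 had at least 1 but fewer than 100 over both. Together the 678 had 3806 reads in the control library against 5662 after knockdown, for a log2 ratio of CPM of 0.62. By the same fold and exact binomial test on the reads of these 2 libraries, 79 (11.7%) were called higher and 4 (0.59%) lower. Of all 13515 genes with so few reads, 13.1% were called higher and 1.62% lower. Among those with most reads, LINC00342 had 8.08 and 63 reads in that order, LINC02449 had 19.5 and 55.9, and LINC01518 had 21 and 53. The 4 called lower were LINC00315 (8 and 1 reads), LINC01127 (19 and 6), LINC01492 (17.5 and 6.06) and LINC02482 (28.2 and 13). With no read in Huh7-NC there were 190 of the 678, and 88 had none in Huh7-si. Many of these genes rest on few reads, and the genes named here were chosen after their values were seen.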
